A study of Mus musculus with 4 samples.

Results

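The nuclear genes for the proteins of the mitochondrial ribosome were examined in a mouse neural crest cell line after knockdown of Lkb1. Members were the genes of the deposited table whose symbol begins with Mrpl or Mrps followed by a number. They came to 78 of 15768 genes, 49 with an Mrpl symbol for the large subunit and 29 with an Mrps symbol for the small subunit. All 78 were protein coding and all 78 passed the filter on low counts, with between 167 and 1811 counts per library.

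The cells were of the line JoMa1.3, a conditionally immortalised derivative of mouse neural crest, the embryonic cell population that also gives rise to the enteric nervous system. Control cultures, with WT as their genotype label, received pooled non-targeting siRNAs, and Lkb1 KD cultures received pooled siRNAs to Stk11, which encodes the kinase LKB1. All cultures received 60 nM siRNA with jetPRIME or RNAiMax, without a statement of which, and RNA was taken after 72 h and read as 150 bp pairs. Each group held 2 libraries, 1 in batch 1 and 1 in batch 2, so that every comparison of the groups could also be made inside a batch. Values of 2 libraries of a group are given below in that order, batch 1 and then batch 2. The line is a single established line, and beyond a number and a batch the labels give nothing on the independence of the cultures. The p-values therefore rest on the spread between these libraries, which may be technical and is partly pooled across genes.

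Mitochondria carry their own ribosome, which makes the few proteins encoded by mitochondrial DNA, all of them core subunits of the respiratory chain and the ATP synthase. Its RNA comes from the mitochondrial genome, while its proteins are encoded in the nucleus, made in the cytosol and imported. The large subunit joins amino acids and holds the exit tunnel for the growing chain, and the small subunit binds the mRNA and reads its codons. Some of the proteins have counterparts in bacterial ribosomes, while others are found only in mitochondria. Symbols and places do not always match: Mrps30 and Mrps18a sit in the large subunit, and Mrps36 is now known as a part of the 2-oxoglutarate dehydrogenase complex.

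The libraries held from 17426719 to 19324675 gene counts. Stk11 had 121.5 and 117.9 CPM, read counts scaled to library size, in the control libraries and 81.4 and 82.0 CPM in the Lkb1 siRNA libraries. The groups did not overlap, and the knockdown was partial (log2 fold change -0.55, SE 0.0659, edgeR adjusted p = 0.0378). Of 15 neural crest markers 12 were in the table, including Snai2, Twist1, Tfap2a and Pax3. They summed to 339.6 to 358.1 TPM, the unit of transcript level per length. All of them but Ngfr exceeded 1 TPM in every library. Ngfr was near that level, with 0.78 and 1.22 TPM in the control and 1.02 and 1.02 TPM in the Lkb1 siRNA libraries. Sox10, Foxd3 and Msx2 were not analysed here. Markers of neurons, glia, endothelium and epithelium each summed to at most 1.32 TPM, those of leukocytes to at most 2.45 TPM and those of melanocytes to at most 4.36 TPM. These sums cover only markers in the table: 1 of 6 for neurons, 3 of 5 for glia, 3 of 3 for endothelium and 4 of 4 for epithelium. For leukocytes it was 2 of 3, and for melanocytes 3 of 4. The smooth muscle genes Acta2 and Tagln were high, and the 5 smooth muscle markers summed to 619.7 and 583.1 TPM in the control libraries and 504.0 and 478.2 TPM in the Lkb1 siRNA libraries. Nearly all of that sum was Acta2 and Tagln. In any library Myh11 had at most 0.11 TPM, Cnn1 at most 0.07 TPM and Des at most 0.7 TPM. The part of the smooth muscle markers in the results that follow was not tested.

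The promoters of these genes are known for sites of a few general transcription factors: the ETS family, which includes GABP, and YY1 and NRF1. Windows from 250 bases before to 50 bases after the annotated start were available from RefSeq (mouse build GRCm38.p6) for 69 of the 78 genes, as 75 windows. The ETS letters CCGGAAG, searched on both strands, were present in 26 member windows (34.7%), against 17.3% of the 12516 windows of all genes tested. The YY1 letters AAGATGGCG were present in 8 member windows (10.7%), against 2.94% of windows of genes tested, and the NRF1 letters GCATGCGC in 8 (10.7%), against 5.15%. At least 1 of the 3 motifs was present in 36 windows (48%), against 23.5%. A plain E-box, CACGTG, was in 7 windows (9.33%), against 9.88%, and the ATF4 letters TGATGNAAN were in 0, against 2.18%. The large and small subunit genes held the ETS letters in 15 of 48 and 11 of 27 windows, and the NRF1 letters in 7 of 48 and 1 of 27. A match is a description of the letters in the window and not an established site.

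4 windows are shown as examples, with the matched letters in capitals and each read 5′ to 3′ on the strand of the gene. Mrpl35 (chr6:71823735-71824034, minus strand) and Mrps21 (chr3:95871465-95871764, minus strand) are the members with the smallest p by subunit in the siRNA comparison. In Mrpl35 the YY1 letters begin 24 bases after the start, and in Mrps21 the ETS letters, on the opposite strand, begin 19 bases after it. Mrpl22 (chr11:58171414-58171713, plus strand) differed between the batches and carries ETS letters 53 bases and NRF1 letters 33 bases before the start. Mrps18a (chr17:46110754-46111053, plus strand), a large subunit protein with a small subunit symbol, carries ETS letters 26 bases before and YY1 letters 12 bases after the start.
Mrpl35: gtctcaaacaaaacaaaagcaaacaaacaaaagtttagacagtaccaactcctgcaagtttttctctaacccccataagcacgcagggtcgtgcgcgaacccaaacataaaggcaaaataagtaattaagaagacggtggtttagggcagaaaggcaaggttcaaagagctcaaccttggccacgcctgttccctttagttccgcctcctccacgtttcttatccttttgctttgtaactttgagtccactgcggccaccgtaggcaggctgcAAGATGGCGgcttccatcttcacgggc
Mrps21: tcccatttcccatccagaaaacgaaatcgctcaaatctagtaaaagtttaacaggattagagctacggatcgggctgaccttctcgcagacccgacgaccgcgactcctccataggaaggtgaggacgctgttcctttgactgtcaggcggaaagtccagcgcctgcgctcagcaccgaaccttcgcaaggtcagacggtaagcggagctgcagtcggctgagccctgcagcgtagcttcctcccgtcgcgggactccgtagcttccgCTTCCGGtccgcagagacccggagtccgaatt
Mrpl22: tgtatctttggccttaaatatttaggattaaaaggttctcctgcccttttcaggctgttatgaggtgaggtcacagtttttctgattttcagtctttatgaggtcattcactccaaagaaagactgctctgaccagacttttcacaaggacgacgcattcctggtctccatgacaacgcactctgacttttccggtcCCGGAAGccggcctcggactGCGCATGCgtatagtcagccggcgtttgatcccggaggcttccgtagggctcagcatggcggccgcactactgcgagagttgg
Mrps18a: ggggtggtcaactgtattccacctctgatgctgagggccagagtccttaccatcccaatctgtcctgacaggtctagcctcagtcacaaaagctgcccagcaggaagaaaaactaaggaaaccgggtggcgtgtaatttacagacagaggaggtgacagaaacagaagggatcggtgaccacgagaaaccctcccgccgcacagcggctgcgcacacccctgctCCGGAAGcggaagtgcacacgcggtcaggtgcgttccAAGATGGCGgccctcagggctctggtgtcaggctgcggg

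The first question was how strongly each gene was expressed. On the TPM scale, which takes transcript length into account, the median member stood at 76.9 TPM as the mean of the 4 libraries, against 19.7 TPM for the median of all 12222 genes tested. Part of that contrast went with length, since short genes had higher TPM. Under 1000 bases the medians were 91.9 TPM for members and 62.2 TPM for all genes. At 1000 bases or more they were 51.9 and 17.6 TPM. The median was 72.6 TPM for the large and 78.6 TPM for the small subunit genes. The quartiles of the members were 53.4 and 113 TPM, and the highest member exceeded the lowest 46.0-fold.

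Among the large subunit genes the highest was Mrpl13, a protein with a bacterial counterpart, with 297 and 281 TPM in the control libraries and 306 and 288 TPM in the Lkb1 siRNA libraries. Mrpl42 followed with 292 and 272 TPM in the control and 298 and 256 TPM in the Lkb1 siRNA libraries. Mrpl52, a short mitochondria-specific protein, had 261 and 254 TPM in the control and 266 and 248 TPM in the Lkb1 siRNA libraries. The order Mrpl13, Mrpl42, Mrpl52 was the same in all 4 libraries, although the range of Mrpl42 over the libraries overlapped with those of its neighbours.

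The lowest large subunit genes were Mrpl19 at 11.9 and 10.1 TPM in the control and 11.6 and 11.4 TPM in the Lkb1 siRNA libraries, and Mrpl41 at 10.99 and 12.04 TPM in the control and 13.1 and 12.3 TPM in the Lkb1 siRNA libraries. Mrpl57 had 14.8 and 14.1 TPM in the control and 16.7 and 13.5 TPM in the Lkb1 siRNA libraries. Mrpl57 stood above the other two in every library, while Mrpl19 and Mrpl41 overlapped.

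Among the small subunit genes Mrps21, a protein with a bacterial counterpart, stood alone at the top, with 395 and 394 TPM in the control libraries and 362 and 379 TPM in the Lkb1 siRNA libraries. Mrps18c had 203 and 219 TPM in the control and 213 and 212 TPM in the Lkb1 siRNA libraries. Mrps6 had 198 and 155 TPM in the control and 203 and 185 TPM in the Lkb1 siRNA libraries, was higher in batch 1 in both groups, and overlapped with Mrps18c. The lowest was Mrps25 at 8.14 and 8.17 TPM in the control and 8.63 and 8.32 TPM in the Lkb1 siRNA libraries. Next came Mrps14 at 30.2 and 30.7 TPM in the control and 28.4 and 31.4 TPM in the Lkb1 siRNA libraries. Mrps31 had 39.5 and 38.8 TPM in the control and 46.6 and 44.1 TPM in the Lkb1 siRNA libraries. These 3 genes did not overlap in any library.

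**Figure D1:**
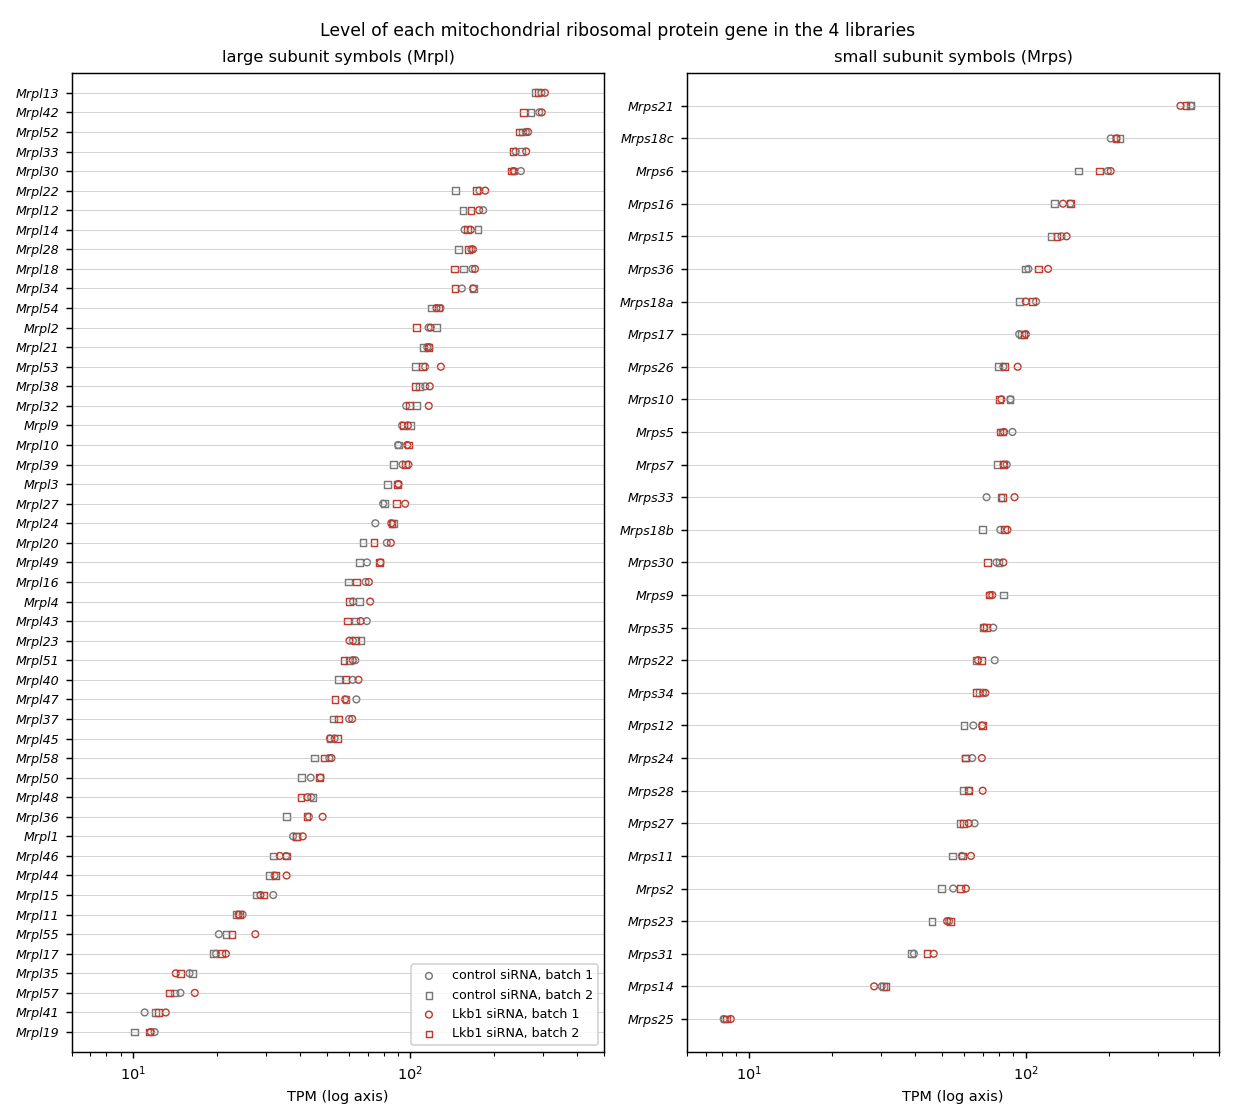
Level of each of the 49 large and 29 small subunit genes in TPM (log axis), with 1 symbol per library, grey for control siRNA and red for Lkb1 siRNA, circles for batch 1 and squares for batch 2. The spread of a gene between libraries was small beside the spread between genes: on the CPM scale the highest library exceeded the lowest by 1.01-fold to 1.31-fold, and the highest member exceeded the lowest 46.0-fold in mean TPM.

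Level and transcript length went together among the members. The effective length, computed from count, FPKM and library total, had a median of 779 bases in the members and 2689 bases in all genes tested. It was under 1000 bases for 48 of 78 members. The shortest were Mrpl52 at 125 bases, Mrpl33 at 175 bases and Mrps21 at 193 bases, and the longest were Mrpl17 at 6419 bases, Mrps25 at 5781 bases and Mrpl19 at 4723 bases. Across the 78 members the log2 TPM level and the log2 length had a Pearson correlation of -0.80 and a Spearman correlation of -0.70. This is a description only: length enters the TPM value itself, and all points come from the same 4 libraries.

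The 2 subunits took similar shares of the libraries in both groups. All members together took 0.352% and 0.335% of gene counts in the control libraries and 0.353% and 0.336% in the Lkb1 siRNA libraries. The large subunit genes summed to 4701 and 4523 TPM in the control and 4876 and 4537 TPM in the Lkb1 siRNA libraries. The small subunit genes summed to 2759 and 2625 TPM in the control and 2794 and 2723 TPM in the Lkb1 siRNA libraries. The ratio of the sums, large over small, was 1.70 and 1.72 in the control and 1.75 and 1.67 in the Lkb1 siRNA libraries, so that the Lkb1 siRNA values lay on both sides of the control values.

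The study's comparison, Lkb1 siRNA against control siRNA, found no member changed in the edgeR quasi-likelihood test. Of all genes tested 10 passed at an adjusted p under 0.05 (0.0818%), 4 higher (0.0327%) and 6 lower (0.0491%), and of the members 0 of 78 passed. At an unadjusted p under 0.05 there were 3 members (3.85%), against 11.1% of all genes. DESeq2 called 0 members and 47 of all genes, and limma on FPKM called 0 members and 0 of all genes. The smallest edgeR adjusted p of a member was 0.382.

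The fold changes were small in both directions, and in counts without a test higher and lower give the sign of the estimate. They ran from -0.22 to 0.19 on the log2 scale, and the 95% confidence intervals of all 78 members lay between -0.45 and 0.52. In percent, the intervals reached from a fall of 26.6% to a rise of 43.3%, so that changes outside that range lay outside every member's interval. Which smaller changes could be resolved with 2 libraries per group differed by member. On the log2 scale the SE ran from 0.066 to 0.147, with a median of 0.091. The large subunit genes were higher in 21 and lower in 28 cases, with a median log2 fold change of -0.03. The small subunit genes were higher in 11 and lower in 18 cases, with a median of -0.01. The median of all genes tested was 0.00 with 49.8% lower. In bulk RNA, fewer cells with a transcript and less transcript per cell cannot be told apart.

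**Figure D2:**
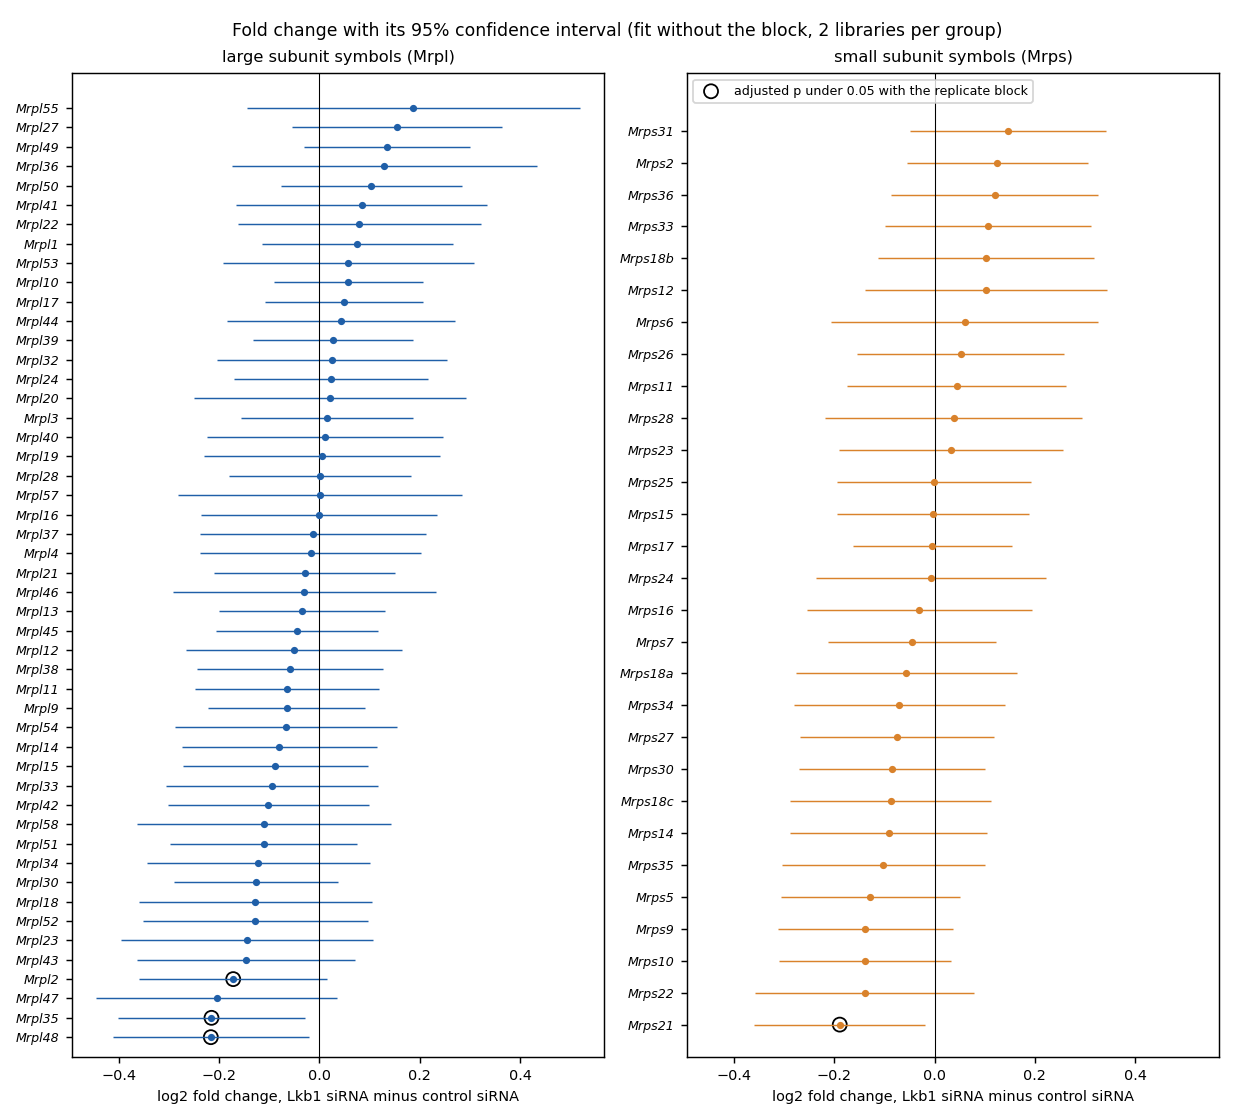
Log2 fold change of each member, Lkb1 siRNA minus control siRNA, with its 95% confidence interval from the edgeR fit without the block (2 libraries per group). Point estimates run from -0.22 to 0.19, and the ringed genes Mrpl35, Mrpl48, Mrpl2 and Mrps21 are those with an adjusted p under 0.05 once batch is a block.

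With batch as a replicate block, which compares the siRNAs inside each batch, 4 members were lower and 0 higher at an adjusted p under 0.05. That is 5.13% of the members, against 13.6% of all genes in the same fit (6.99% lower and 6.59% higher). With so few libraries this fit draws the spread mostly from all genes together. Disagreement of a gene between the batches therefore weighs little in its p-value. The 4 were Mrpl35, Mrps21, Mrpl48 and Mrpl2, so that 3 belonged to the large and 1 to the small subunit.

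Mrpl35, a large subunit protein with a bacterial counterpart, had 36.6 and 36.6 CPM in the control libraries and 31.1 and 31.9 CPM in the Lkb1 siRNA libraries. Both Lkb1 siRNA libraries were below both controls (log2 fold change -0.22, SE 0.0825, edgeR adjusted p = 0.382 without and 0.0322 with the block). Its transcript is long for a member, at 3401 bases. Mrps21, the highest small subunit gene, had 51.7 and 50.6 CPM in the control and 43.7 and 46.0 CPM in the Lkb1 siRNA libraries. The groups did not overlap (log2 fold change -0.19, SE 0.0759, edgeR adjusted p = 0.400 without and 0.0338 with the block).

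Mrpl48, a mitochondria-specific protein of the large subunit, had 33.3 and 32.2 CPM in the control and 28.7 and 27.6 CPM in the Lkb1 siRNA libraries. Its log2 fold change of -0.22 was nearly the same in both batches, -0.21 and -0.22 (SE 0.0868, edgeR adjusted p = 0.400 without and 0.0407 with the block). Mrpl2, a core protein of the large subunit with a bacterial counterpart, had 57.8 and 60.3 CPM in the control and 55.7 and 49.1 CPM in the Lkb1 siRNA libraries. Its fold change differed between batches, -0.05 in batch 1 and -0.29 in batch 2 (edgeR adjusted p = 0.484 without and 0.0421 with the block). On the TPM scale the groups of Mrpl2 overlapped, since its 118 TPM in the Lkb1 siRNA library of batch 1 lay above the 116 TPM of the control library of that batch. Over all the alternatives run, the adjusted p of Mrpl35 lay between 0.0211 and 0.9997, that of Mrps21 between 0.0338 and 0.9997, that of Mrpl48 between 0.0407 and 0.9997 and that of Mrpl2 between 0.0421 and 0.9997, and the estimates of all 4 remained negative.

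The next members by p did not pass with or without the block. Mrpl47 had 24.9 and 22.3 CPM in the control and 21.5 and 19.6 CPM in the Lkb1 siRNA libraries (log2 fold change -0.20, edgeR adjusted p = 0.513). Mrpl49, a mitochondria-specific protein of the large subunit, had 67.3 and 61.8 CPM in the control and 71.6 and 70.0 CPM in the Lkb1 siRNA libraries (0.13, edgeR adjusted p = 0.532). In both genes the groups did not overlap. Across the members the 2 groups did not overlap in 27 of 78 genes (34.6%), against 42.6% of all genes tested.

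Among the small subunit genes, Mrps10, Mrps9 and Mrps5, which have bacterial counterparts, had negative estimates. Mrps10 had 45.2 and 44.6 CPM in the control and 40.8 and 40.8 CPM in the Lkb1 siRNA libraries (log2 fold change -0.14). Mrps9 had 56.4 and 61.7 CPM in the control and 54.7 and 52.7 CPM in the Lkb1 siRNA libraries (-0.14). Mrps5 had 68.9 and 61.7 CPM in the control and 61.1 and 58.4 CPM in the Lkb1 siRNA libraries (-0.13). Mrps10 was separated by more than the spread inside either group, while in Mrps5 the control library of batch 2 lay just above the Lkb1 siRNA library of batch 1. None of the 3 passed, with edgeR adjusted p-values of 0.534, 0.541 and 0.573.

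The largest positive estimates were also below the threshold. Mrpl55 had 9.11 and 9.43 CPM in the control and 11.6 and 9.54 CPM in the Lkb1 siRNA libraries, with fold changes of 0.35 in batch 1 and 0.02 in batch 2. It had the fewest counts of any member, down to 167 in a library. Mrpl27 had 24.0 and 24.0 CPM in the control and 27.5 and 26.0 CPM in the Lkb1 siRNA libraries (log2 fold change 0.15). Mrps31 had 33.0 and 31.7 CPM in the control and 37.0 and 34.5 CPM in the Lkb1 siRNA libraries (0.15). Mrps2 had 66.0 and 58.7 CPM in the control and 69.8 and 66.1 CPM in the Lkb1 siRNA libraries (0.13). The groups of Mrpl27, Mrps31 and Mrps2 did not overlap, narrowly so in Mrps2, and the edgeR adjusted p-values of these 4 genes lay between 0.558 and 0.670.

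The genes whose symbol and place differ followed no separate course. Mrps30 had 68.6 and 68.3 CPM in the control and 69.1 and 60.0 CPM in the Lkb1 siRNA libraries. Mrps18a had 42.0 and 35.7 CPM in the control and 36.4 and 38.3 CPM in the Lkb1 siRNA libraries. In both genes the groups overlapped. Counting the 51 genes that sit in the large and the 26 that sit in the small subunit, in place of the symbols, gave medians of -0.03 and -0.01.

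Inside each batch the large and small subunit genes stood at nearly the same place. In batch 1 the median log2 fold change was -0.04 for the large and -0.04 for the small subunit genes, and in batch 2 it was 0.00 for each. The difference of the medians, large minus small, was 0.007 in batch 1 and -0.0006 in batch 2. The mean log2 CPM of the large minus that of the small subunit genes was -0.03 and -0.01 in the control libraries and -0.01 and -0.06 in the Lkb1 siRNA libraries. The Lkb1 siRNA values lay on both sides of the control values, and 2 libraries against 2 cannot reach a p under 0.05 in an exact permutation test.

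The same direction in both batches was seen for 46 of 78 members (59.0%), 27 lower and 19 higher in both, against 67.2% of all genes tested. By subunit it was 29 of 49 large and 17 of 29 small subunit genes. In a single batch the fold changes ran from -0.28 to 0.35 in batch 1 and from -0.29 to 0.20 in batch 2, each from 1 library per group.

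**Figure D3:**
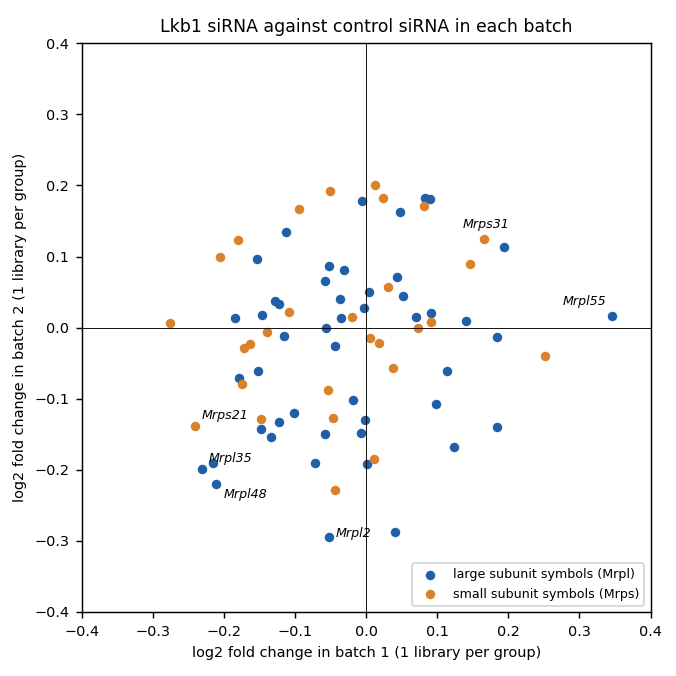
Log2 fold change of each member, Lkb1 siRNA against control siRNA, in batch 1 (horizontal) and batch 2 (vertical), 1 library per group in each, with large subunit genes in blue and small subunit genes in orange. Of 78 points 27 lie at the lower left and 19 at the upper right, where both batches have the same sign, and Mrpl35, Mrpl48 and Mrps21 lie near the lower left edge of the cloud.

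Grouping by origin gave no separation either. The 46 genes with a bacterial counterpart had a median log2 fold change of -0.02, and so did the 32 that are specific to mitochondria. The 32 include Mrps36, which was given no place in the ribosome. Of the first, 3 passed as lower with the block (Mrpl35, Mrps21 and Mrpl2), and of the second 1 (Mrpl48).

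Transcript length was examined because fold changes of all genes followed it. With all genes sorted by effective length into 10 classes of equal size, the median log2 fold change went from -0.07 in the shortest class to 0.04 in the longest. Of the members, 47 fell in the shortest class, 28 large and 19 small subunit genes, and 16 in the next. The 47 members had a median of -0.03, against -0.07 for all 1223 genes of that class. Inside the batches these members stood at -0.04 and 0.00, and all genes of the class at -0.07 and -0.07.

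Split at 1000 bases, the 48 shorter members had a median of -0.03 with 62.5% lower, while all 1382 shorter genes had a median of -0.07 with 67.9% lower. The 30 longer members had a median of -0.01 and all 10840 longer genes 0.01. The correlation of fold change with log2 length was 0.12 across the 78 members and 0.13 across all genes tested, as a description of genes that share the same libraries.

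With the trend with length removed through offsets, the medians turned positive, 0.02 for the large and 0.04 for the small subunit genes, and 46 of 78 members were higher. With this correction and the replicate block together 2 members passed at an adjusted p under 0.05, against 12.5% of all genes, 5.91% higher and 6.56% lower. Mrpl35 was lower (log2 fold change -0.23, edgeR adjusted p = 0.0211) and Mrpl49 was higher (0.16, edgeR adjusted p = 0.0477, with 0.0477 to 0.9997 over the alternatives). Mrps21, the third shortest member, Mrpl48 and Mrpl2 did not pass in that fit, with log2 fold changes of -0.09, -0.18 and -0.12 that were still negative. The direction of the subunit medians therefore depended on whether the length trend was removed, and that of these 3 genes and Mrpl35 did not.

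**Figure D4:**
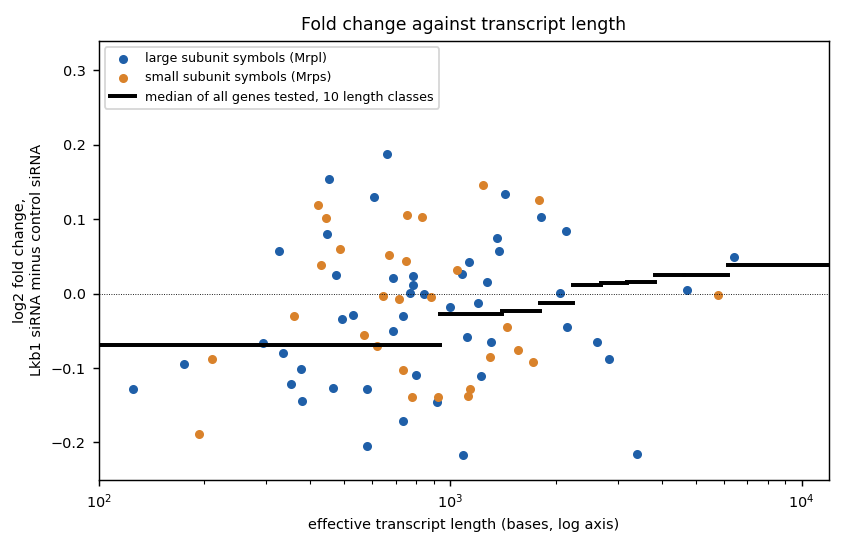
Log2 fold change of each member, Lkb1 siRNA minus control siRNA, against effective transcript length in bases (log axis), with large subunit genes in blue and small subunit genes in orange. Black bars are medians of all genes tested in 10 length classes, from -0.07 to 0.04, and most members lie in the shortest class, on both sides of its bar.

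Most members were lower in batch 2 than in batch 1. In the fit with group and batch, 8 members were lower and 0 higher in batch 2 at an adjusted p under 0.05 (10.3%), against 12.9% of all genes in either direction, 6.62% lower and 6.3% higher. The median log2 difference, batch 2 minus batch 1, was -0.09, with -0.08 for the large and -0.09 for the small subunit genes, while it was 0.01 for all genes tested. Of the members 69 of 78 were lower in batch 2 (88.5%), against 48.4% of all genes. The labels call these batches and do not say in what they differ.

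The 8 genes were Mrpl12, Mrpl16, Mrpl18, Mrpl20, Mrpl22, Mrpl37, Mrpl42 and Mrps6. Mrps6, a small subunit protein with a bacterial counterpart, had 65.03 CPM in batch 1 and 49.8 CPM in batch 2 of the control and 62.8 and 56.9 CPM in the Lkb1 siRNA libraries (log2 difference -0.26, edgeR adjusted p = 5.9e-04). Mrpl12, part of the stalk that recruits translation factors, had 84.9 and 70.2 CPM in the control and 77.7 and 72.0 CPM in the Lkb1 siRNA libraries (-0.19, edgeR adjusted p = 0.0086). Mrpl20 had 38.1 and 30.5 CPM in the control and 37.3 and 32.3 CPM in the Lkb1 siRNA libraries (-0.26, edgeR adjusted p = 0.0060). In each of these 3 genes both libraries of batch 2 lay below both of batch 1.

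Mrpl22, whose protein lines the exit tunnel, had 53.5 and 43.0 CPM in the control and 53.3 and 48.7 CPM in the Lkb1 siRNA libraries (log2 difference -0.22, edgeR adjusted p = 0.0086). Mrpl18 had 66.7 and 59.4 CPM in the control and 63.4 and 52.0 CPM in the Lkb1 siRNA libraries (-0.22, edgeR adjusted p = 0.0043). The other 3 had log2 differences of -0.20 (Mrpl16), -0.20 (Mrpl37) and -0.17 (Mrpl42). The batches did not overlap, with batch 2 lower, in 35 of 78 members (44.9%), against 20.8% of all genes, and in 0 with batch 2 higher.

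Within each group most members were lower in batch 2. Between the control libraries 61 members were lower in batch 2, with a median of -0.11, and between the Lkb1 siRNA libraries 64 were lower, with a median of -0.08. In 50 members (64.1%) batch 2 was lower in both groups, against 32.9% of all genes. In single groups the shares were 78.2% (control) and 82.1% (Lkb1 siRNA), against 48.4% and 49.9% of all genes. Same-batch deviations from the group means correlated at 0.01 over the members and 0.26 over all genes. Whether the groups shared direction more often in members than in other genes was not tested. All 32 mitochondria-specific members, Mrps36 included, had a negative batch difference, as did 37 of the 46 with a bacterial counterpart. The 9 with a positive one were Mrpl9, Mrpl14, Mrpl23, Mrpl24, Mrpl35, Mrps9, Mrps14, Mrps18c and Mrps21. The batch difference had a Pearson correlation with log2 length of 0.01 over the 78 members and 0.09 over all genes tested, as a description of genes from the same libraries. With library size in place of TMM normalisation the members' median was -0.07 against 0.02 for all genes. In that setting 63 of 78 members were lower, against 5270 of all 12222 genes tested. Of the members 5 passed, against 1549 of all genes. The smooth muscle marker sum, nearly all of it Acta2 and Tagln, was also lower in batch 2 in both groups. Its part in this result was not tested.

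**Figure D5:**
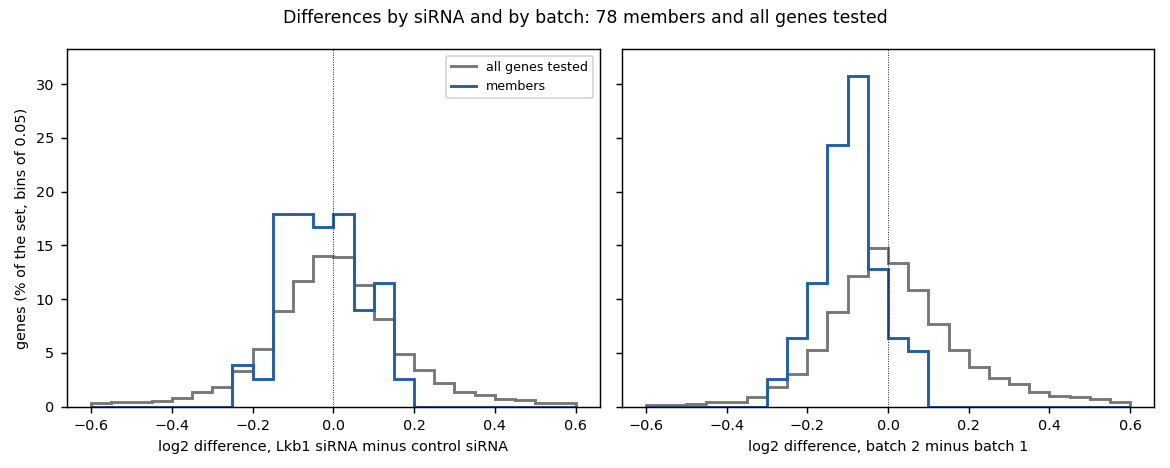
Share of genes, in percent of each set, per bin of 0.05 on the log2 scale, for Lkb1 siRNA minus control siRNA (left) and batch 2 minus batch 1 (right), with the 78 members in blue and all genes tested in grey. Members centre near -0.02 on the left and near -0.09 on the right, where 69 of 78 lie below 0.

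Most members had a single main transcript. The transcript table held 181 RefSeq transcripts of the 78 genes, 121 curated and 60 model records. Of the genes, 37 had 1 transcript, and 57 had 1 transcript with at least 5% of the counts. Of the 181 transcripts 142 passed the filter, and 0 passed the test without or with the block, as did 0 of 34279 transcripts of all genes (0%). At an unadjusted p under 0.05 there were 2 member transcripts without and 0 with the block in edgeR, the tool used for transcripts. The share of all transcripts under that p was not counted, so these counts are a description only.

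The genes with the most divided counts were Mrps17, where the most abundant of 9 transcripts held 38.3%, and Mrpl48, where the most abundant of 5 held 43.0%. Mrpl1, a large subunit protein with a bacterial counterpart, had a curated transcript that took 31.6% and 34.8% of its counts in the control and 39.5% and 40.2% in the Lkb1 siRNA libraries. The groups did not overlap, but the transcript did not pass (log2 fold change 0.32, edgeR adjusted p = 0.940). The curated transcript of Mrpl48 held 41.9% and 39.1% of its counts in the control and 38.0% and 38.6% in the Lkb1 siRNA libraries, and a model transcript held 40.5% and 36.2% in the control and 52.9% and 42.4% in the Lkb1 siRNA libraries.

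The surrounding machinery was described with lists of genes, beginning with 5 proteins of the mitochondrial ribosome whose symbols do not begin with Mrp. Of these 3 were higher and 2 lower, 0 passed without and 1 with the block, where 13.6% of all genes passed. Ptcd3, an RNA-binding small subunit protein, had 104 and 90.6 CPM in the control and 117 and 108 CPM in the Lkb1 siRNA libraries (log2 fold change 0.21, edgeR adjusted p = 0.404 without and 0.00128 with the block). Both batches had the same direction. Dap3, a GTP-binding small subunit protein, had 130 and 124 CPM in the control and 120 and 119 CPM in the Lkb1 siRNA libraries (-0.09, edgeR adjusted p = 0.652). Gadd45gip1, a large subunit protein, had 49.8 and 47.4 CPM in the control and 45.7 and 45.2 CPM in the Lkb1 siRNA libraries (-0.10, edgeR adjusted p = 0.670).

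Of 29 assembly factors of the mitochondrial ribosome 13 were higher and 16 lower, with a median of -0.02, and 0 passed without and 2 with the block, Mettl17 and Noa1, both higher (6.90%, against 13.6% of all genes in that fit). Mettl17, a methyltransferase-like factor for the small subunit, had 9.17 and 8.91 CPM in the control and 11.2 and 11.6 CPM in the Lkb1 siRNA libraries (0.33, edgeR adjusted p = 0.388 without and 0.0495 with the block). Noa1, a GTPase, had 114 and 98.2 CPM in the control and 126 and 108 CPM in the Lkb1 siRNA libraries (0.14, edgeR adjusted p = 0.613 without and 0.0406 with the block). Mtg1, a GTPase of the large subunit, had 15.1 and 16.8 CPM in the control and 13.5 and 13.0 CPM in the Lkb1 siRNA libraries (-0.27, edgeR adjusted p = 0.442). Nsun4, an rRNA methyltransferase, had 14.4 and 15.5 CPM in the control and 13.6 and 12.3 CPM in the Lkb1 siRNA libraries (-0.21, edgeR adjusted p = 0.547).

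Of 18 mitochondrial translation factors 6 were higher and 12 lower, with a median of -0.05, and 0 passed with or without the block. Guf1, a GTPase that acts on stalled ribosomes, had 26.7 and 25.2 CPM in the control and 29.1 and 30.5 CPM in the Lkb1 siRNA libraries (0.20, edgeR adjusted p = 0.453). Gatb, a subunit of the amidotransferase that makes glutaminyl-tRNA, had 18.2 and 18.04 CPM in the control and 14.4 and 17.5 CPM in the Lkb1 siRNA libraries (-0.18, edgeR adjusted p = 0.618). Tufm, the elongation factor that delivers charged tRNA, had 180 and 164 CPM in the control and 166 and 155 CPM in the Lkb1 siRNA libraries (-0.10, edgeR adjusted p = 0.662). The batch term called 3 of the 18 as lower in batch 2 and 0 as higher, where 6.62% of all genes were lower and 6.3% higher. The 3 were Tsfm, Gfm1 and Letm1, the first 2 of them elongation factors.

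The genes for mitochondrial transcription and RNA processing, which supply the RNA of the ribosome, were described next. Of 18 genes 14 were higher and 4 lower, with a median of 0.09, and 0 passed without and 3 with the block, all 3 higher (16.7%, against 13.6% of all genes in that fit). Pnpt1, an exoribonuclease, had 106 and 110 CPM in the control and 127 and 123 CPM in the Lkb1 siRNA libraries (0.20, edgeR adjusted p = 0.325 without and 0.00133 with the block). Polrmt, the mitochondrial RNA polymerase, had 31.6 and 28.5 CPM in the control and 35.5 and 36.3 CPM in the Lkb1 siRNA libraries (0.26, edgeR adjusted p = 0.357 without and 0.00823 with the block). Trmt10c, a subunit of mitochondrial RNase P, had 32.6 and 27.9 CPM in the control and 36.5 and 36.6 CPM in the Lkb1 siRNA libraries (0.27, edgeR adjusted p = 0.358 without and 0.00352 with the block). In these 3 genes the groups did not overlap, as in 42.6% of all genes tested.

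Of 14 regulators of nuclear genes for mitochondria 7 were higher and 7 lower, with 1 that passed without the block and 2 higher and 4 lower with it (42.9%, against 13.6% of all genes in that fit). The list includes the stress factors Atf4, Atf5 and Ddit3 and was chosen with earlier results of these data known. Its share is therefore a description and not a sign of enrichment. Atf5, a transcription factor of the mitochondrial stress response, had 56.7 and 61.8 CPM in the control and 38.4 and 38.6 CPM in the Lkb1 siRNA libraries (-0.62, SE 0.0796, edgeR adjusted p = 0.0378). Ddit3, a stress-induced partner of such factors, had 24.9 and 29.9 CPM in the control and 17.1 and 18.4 CPM in the Lkb1 siRNA libraries (-0.63, edgeR adjusted p = 0.116 without and 2.12e-10 with the block). Gabpa, the ETS subunit of GABP, had 104 and 102 CPM in the control and 117 and 119 CPM in the Lkb1 siRNA libraries (0.20, edgeR adjusted p = 0.325 without and 0.00209 with the block). With the block Pprc1, a coactivator of NRF1, was also higher, and Myc and Atf4 were lower, with log2 fold changes of 0.23, -0.34 and -0.21. The members with ETS letters in their window had a median log2 fold change of -0.04 (26 genes), and those with a window without them 0.00 (43 genes). For the YY1 letters the medians were -0.03 with (8 genes) and 0.00 without them (61 genes), and for the NRF1 letters 0.04 with (8 genes) and -0.03 without them (61 genes).

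Of 27 import genes 9 were higher and 18 lower, with a median of -0.04, and 0 passed without and 3 with the block, all lower (11.1%, against 13.6% of all genes in that fit). Dnajc19, a cochaperone of the import motor, had 18.99 and 19.9 CPM in the control and 14.5 and 16.8 CPM in the Lkb1 siRNA libraries (-0.31, edgeR adjusted p = 0.372 without and 0.0146 with the block). Hspa9, the motor's chaperone, had 901 and 786 CPM in the control and 780 and 707 CPM in the Lkb1 siRNA libraries (-0.18, edgeR adjusted p = 0.453 without and 0.00135 with the block). Tomm7, of the outer membrane translocase, had 69.9 and 76.7 CPM in the control and 60.4 and 68.5 CPM in the Lkb1 siRNA libraries (-0.18, edgeR adjusted p = 0.458 without and 0.0167 with the block). In these 3 genes the groups did not overlap, as in 42.6% of all genes tested. The separation was narrow in Hspa9, where the control library of batch 2 lay just above the Lkb1 siRNA library of batch 1. Between batches 9 import genes were lower and 0 higher in batch 2, where 6.62% of all genes were lower and 6.3% higher, with a median of -0.13 for the list, among them Tomm40, Timm23, Timm8a1 and Tomm70a.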

How the data were processed

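RNA was sequenced in 2 control siRNA and 2 Lkb1 siRNA libraries. The build GRCm39 and the tools RSEM 1.2.8, HISAT2 2.0.4 and Bowtie2 2.2.5 are named, without roles, in the submitters' processing notes, and the strand setting and annotation were not given in the sources used here, so reads of overlapping genes or near copies may be shared. The authors deposited expected counts (per the file headers, read counts, 5.73 to 5.97% of them not whole), FPKM and TPM per gene and transcript. A normalised count, a signal deposited by the authors, was not used in tests. In 41 cells of the gene table and 96 of the transcript table, none of a member, a doubled decimal point was read as 1 point, and 2 symbols turned into dates were restored.

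The rounded counts entered edgeR 4.0.16 under R 4.3.3 (quasi-likelihood F-test, robust, TMM, expression filter with minimum count 10), which left 12222 genes. Benjamini-Hochberg adjustment covered all genes tested, and 0.05 was the threshold. CPM are scaled by TMM, and fold changes within a batch use log2(CPM + 0.1). Effective length was the pooled count divided by FPKM and library total, and its trend was removed per library by loess (span 0.3). The procedure was run on simulated counts in which every gene had the same spread between replicates. Genes that differ in spread were not simulated. The batch label pairs the libraries, and same-batch deviations from the group means correlated at 0.26 over all genes and 0.01 over the members, so the fit with batch as a block is given beside the one without. The p-values of the block fit, and those between batches, rest mostly on a spread shared by all genes. DESeq2 1.42.0 and limma 3.58.1 (on log2 FPKM) were alternatives. Counting precision is set by 167 to 1811 counts per member and library. Members were 78 genes chosen by symbol, and values per library were given for those with the smallest p in each subunit (5 each), those passing with the block, the 3 highest and 3 lowest in each subunit, the 2 largest positive changes in each, Mrps18a, Mrps30, and up to 3 genes of each list. Other genes named were chosen after their values were seen. Members and lists were chosen with earlier results of these data known. Promoter windows came from RefSeq (GRCm38.p6).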

Additional observations from a re-analysis of the deposited data

How the results depend on the processing

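Removing the length trend, alone or with the replicate block, moved the median log2 fold change of the large subunit genes from -0.029 to 0.0193 and 0.0180 and of the small from -0.0074 to 0.0386 and 0.0385. Library size gave 0.00356 and 0.0253, limma on log2(FPKM + 1) 0.0187 and 0.0278, and limma on log2(FPKM + 0.1) 0.0189 and 0.0310. Library size moved the median of all genes to 0.033, and limma moved it to 0.0299 with pseudocount 1 and 0.0350 with pseudocount 0.1. Leaving out 1 library gave -0.0888 to 0.0229 for the large and -0.0824 to 0.0416 for the small subunit. Without control siRNA replicate 1 these were 0.0161 and 0.0416, without Lkb1 siRNA replicate 2 0.0229 and 0.0157. The sign of either median thus changed with these settings.

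The 10 genes called became 3 (library size), 47 (DESeq2), 45 (at least 1 count), 4 (at least 5 CPM), 0 (limma, either pseudocount), 1660 (replicate block), 1524 (length trend removed, with the replicate block) and 66 to 253 without 1 library. Members called were 0, except 4 with the replicate block and 2 with length trend and block. Members called between batches went from 8 to 5 with library size, and all genes called from 1579 to 1549. The cause was not tested.

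Mrps18a reversed to 0.0036 with the length trend removed, 0.0060 with the block as well and 0.065 without control siRNA replicate 1 (range without 1 library -0.17 to 0.065), and Mrps30 to 0.016 without Lkb1 siRNA replicate 2 (range -0.19 to 0.016). Stk11 fell below the threshold in 3 settings with its direction kept. Counting 1 value per named gene and alternative, 195 values kept direction and side of the threshold, 6 passed it anew, 3 no longer passed and 4 reversed.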
